A study of Mus musculus with 12 samples.

Results

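The 1554 loci described here are the rows of the repeat annotation whose family is ERVK and whose length is 5000 bp or more. They made up 0.437% of the 355433 ERVK rows and 7.63% of the length annotated as ERVK, out of 4929385 repeat rows in all. The members were chosen by annotation and length alone, with no measured value. At the length limit, 4 members measured exactly 5000 bp, and the longest ERVK row left out measured 4999 bp.

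ERVK elements are the class of mouse endogenous retroviruses that holds the intracisternal A particles and the early transposons. A complete copy carries an internal region between long terminal repeats (LTRs), which hold the promoter and the polyadenylation signal and which repeat annotations list as rows of their own. In embryonic stem cells most copies are kept silent by DNA methylation and by histone H3 lysine 9 methylation, and their RNA is known to carry N6-methyladenosine (m6A). ALKBH5 is an enzyme that removes m6A from RNA. The family name in the annotation is not divided further, so a member cannot be assigned here to a particular subfamily.

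The study profiled RNA of the chromatin-associated fraction of E14TG2a cells, a mouse embryonic stem cell line, by m6A immunoprecipitation and sequencing. The 3 genotypes were ΔcIDR, in which the label names a deleted stretch of Alkbh5 (an IDR is an intrinsically disordered region), Alkbh5 knockout (KO) and wild type (WT), each with 2 replicates of input and immunoprecipitated RNA. All were cultured in serum with LIF and inhibitors of MEK and GSK3, with no other treatment in the labels. The tables used here hold 6 columns, 2 per genotype. Their names do not say whether a column is immunoprecipitated or input, so a difference in signal at a locus cannot be divided among m6A, RNA amount and the number of gene copies. The ΔcIDR columns are named as a knock-in and were assigned by elimination. Both KO columns carry the same line number, so they may come from 1 line. Nothing in the labels says that replicates were separate cultures, so p-values measure only the spread between these libraries.

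Over all repeat rows, ΔcIDR held 20922839 and 21666970 reads, KO 26267351 and 23336824, and WT 21908485 and 21864369. The deposited signal is whole reads times 1 factor per library, set by how many reads the spike-in RNA with m6A received. A read was worth 3.33 and 3.20 units of signal in ΔcIDR, 1.97 and 1.45 in KO, and 2.32 and 2.45 in WT. The factor rests on 814 to 1870 spike-in reads per library, and every statement of higher or lower signal below carries it. Over all 433487 repeat loci tested, the median log2 change was −0.29 for KO against WT, 0.33 for ΔcIDR against WT and 0.61 for ΔcIDR against KO, and the members are read against these shifts. The sequenced fragments of near-identical copies cannot always be told apart, and how reads with several possible positions were treated is not given in the sources used here. The signal of a single copy is therefore uncertain to that extent.

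Read depth differed by orders of magnitude among the members. The median member had a mean of 17 reads over the 6 libraries, with quartiles of 2.17 and 28.5. No read was found in any library at 226 members (14.5%), a count that allows up to 3 reads per library at each of them, and 330 members averaged under 1 read. At the other end, 91 members averaging 100 or more reads held 62.6% of all reads of the class. The 10 members with the most signal held 35.0% and 34.6% of member reads in ΔcIDR, 29.0% and 28.5% in KO, and 31.5% in each WT library.

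Length fell into a few narrow groups. The median was 6434 bp, and 529 members measured between 6400 and 6500 bp. The most common single length was 7524 bp, shared by 39 members. Among the 278 members of 5 to 6 kb, 38 had no read, and among the 972 members of 6 to 7 kb, 26 had none. Members of 7 to 8 kb differed from both, since 161 of 295 (54.6%) had no read. Most of those lay on chromosome Y, where 146 of 180 members of that length had no read and 0 reached the level needed for a test, against 15 of 115 without a read on the other chromosomes. The plot of reads by length shows this group as a column of points at the bottom. Members of 6 to 7 kb held 81.4% of the reads of the class. The longest member, on chromosome 11 (34498586 to 34574196), was annotated at 75610 bp and had 2 reads in ΔcIDR replicate 1 and none in the other 5 libraries, and the next longest measured 8835 bp.

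**Figure D1:**
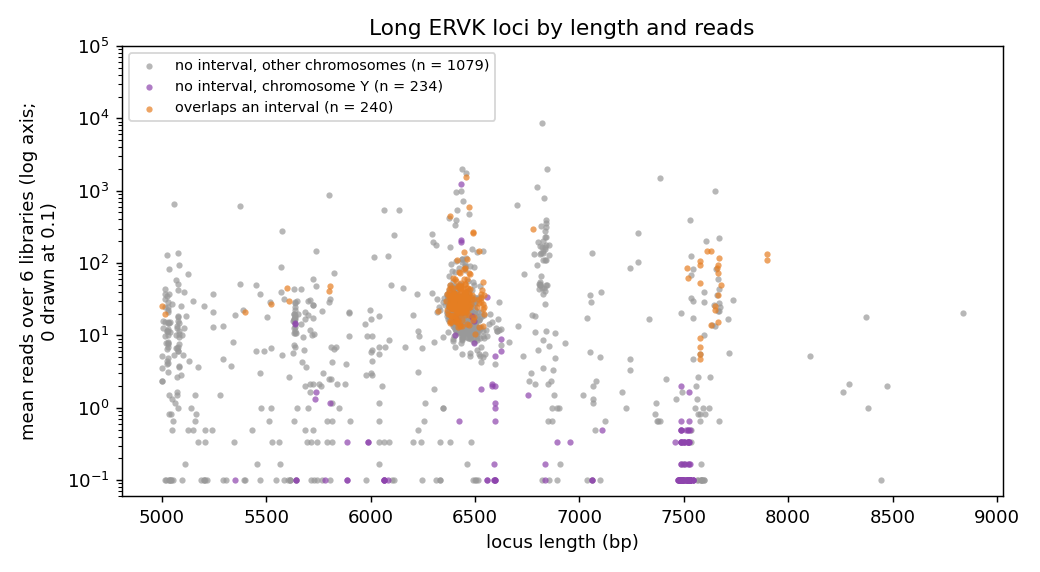
Mean reads over the 6 libraries (vertical axis, logarithmic) against length in bp for each long ERVK locus, leaving out the member of 75610 bp. Orange points overlap an interval of the deposited interval table, purple points lie on chromosome Y without an interval, grey points are the rest. Loci crowd near 6434 bp, around the median of 17 reads, and most chromosome Y loci lie near 7524 bp at or close to 0, drawn at 0.1.

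Short ERVK rows of 200 to 1500 bp, a range set to hold LTRs, ended or started within 10 bp of a member on both sides at 1105 members, on 1 side at 384 and on neither at 65. The median of these flanking rows was 350 bp, and at 988 of the 1105 members (89.4%) both sides had the same length within 10 bp. Over the members with both flanks, reads per kb of member came to 6.82 and 8.01 in ΔcIDR, 7.48 and 6.63 in KO, and 7.47 and 6.69 in WT. The flanking rows of the same members had 3.59 and 3.49 reads per kb in ΔcIDR, 3.77 and 3.51 in KO, and 3.34 and 3.79 in WT. Per kb, the summed internal regions were thus covered more deeply than the summed flanking rows in each of the 6 libraries. These are sums, in which the few members with most reads weigh heavily. The median member with both flanks had a mean of 18.3 reads, and the median length was 6459 bp. Single members were not compared with their own flanks, so the sums do not describe the typical member. Of the tested members, 806 had both flanks, 225 had 1 and 20 had neither.

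Summed over all 1554 members, the signal averaged 229451 ± 19292 over the ΔcIDR libraries, 116437 ± 33947 over KO and 161213 ± 6045 over WT (SD, n = 2 each). Single libraries gave 215810 and 243093 in ΔcIDR, 140441 and 92433 in KO, and 165487 and 156938 in WT. On the deposited scale the libraries of the 3 genotypes did not overlap. The log2 difference of the sum was −0.50 ± 0.30 (SE) for KO against WT, −0.80 without KO replicate 1 and −0.20 without KO replicate 2. It was 0.51 ± 0.09 for ΔcIDR against WT and 1.01 ± 0.31 for ΔcIDR against KO. With 2 libraries a group an exact two-sided permutation test cannot give a p below 0.333, so no p is given for sums. With libraries scaled by reads of the ERCC RNAs, both ΔcIDR differences turned, to −0.15 ± 0.05 (SE) against WT and −0.052 ± 0.044 against KO. Scaled by the unmodified spike-in they were −0.67 ± 0.67 and −0.39 ± 0.37. KO against WT stayed negative, at −0.098 ± 0.036 with ERCC scaling and −0.29 ± 0.68 with the unmodified spike-in. The values of the unmodified spike-in, and that of ΔcIDR against KO with ERCC scaling, were thus not clearly apart from 0.

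The sums of all repeat loci moved in the same direction on the deposited scale, by −0.32 ± 0.31 (SE) for KO against WT, 0.41 ± 0.04 for ΔcIDR against WT and 0.73 ± 0.31 for ΔcIDR against KO. ERVK rows under 5000 bp gave −0.38, 0.41 and 0.78 in the same order. Shares within a library do not depend on the scale. Members took 0.309% and 0.351% of repeat reads in ΔcIDR, 0.272% and 0.273% in KO, and 0.326% and 0.293% in WT. As a share of ERVK reads they took 4.38% and 4.86% in ΔcIDR, 3.94% and 4.02% in KO, and 4.52% and 4.13% in WT. By both measures each KO library lay below all 4 others, and the ΔcIDR and WT libraries overlapped. Without the 10 members with the most reads, the log2 difference in the share of repeat reads was 0.15 ± 0.10 for ΔcIDR against KO, beside 0.28 ± 0.09 with them, and −0.12 ± 0.08 for KO against WT, beside −0.18 ± 0.08 (SE).

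**Figure D2:**
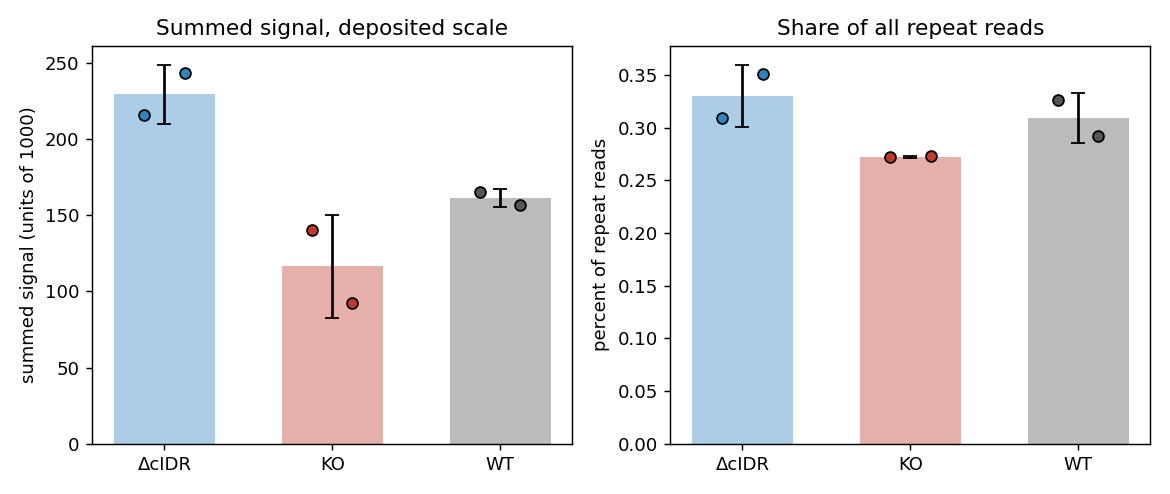
Left, signal summed over the 1554 long ERVK loci, on the deposited scale. Right, the share of all repeat reads in percent. Bars are means, error bars SD and points the 2 libraries of each genotype. Mean signal is 229451 in ΔcIDR, 116437 in KO and 161213 in WT on the deposited scale (the position of ΔcIDR above WT and KO turns on the ERCC and unmodified spike-in scales), and the shares run from 0.272% to 0.351%.

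Tests per locus used limma on the log2 of signal plus 5, fitted to all repeat loci with a mean signal of at least 20 and adjusted by Benjamini and Hochberg over all of them. This filter passed 1051 members (67.6%) and left out 503, and counts below refer to those tested. Calls are at an adjusted p under 0.05. The filter used the mean over all 6 libraries, and changes on this scale are understated at low loci.

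In KO against WT, 27 members fell and 3 rose, 2.85% of those tested against a background of 2.37% over all tested loci. By direction, the background was 2.2% lower and 0.175% higher. The whole class therefore stood near the background. The median change of the tested members was −0.32, beside −0.29 for all loci, and KO and WT libraries did not overlap at 410 members (39.0%, background 41.7%). After each library was centred on the median of tested loci, 31 members fell and 8 rose (3.71%, background 3.48%, with 2.16% lower and 1.32% higher). With ERCC scaling 24 fell and 13 rose (background 4.05%), and the median of the tested members turned to 0.042. Of the 27 lower calls, 22 were also made in each of the centred, ERCC, edgeR quasi-likelihood and edgeR TMM fits, and so were all 3 higher calls. These fits used the same filter, which 2 of the 3 higher calls passed only through the KO libraries. For those 2 the agreement carries no weight. Leaving out 1 library changed the count and the background. There were 117 calls without KO replicate 1 (background 10.5%), 23 without KO replicate 2 (1.07%), 19 without ΔcIDR replicate 1 (1.19%) or 2 (1.2%), 8 without WT replicate 1 (0.302%) and 7 without WT replicate 2 (0.176%). Of the calls, 5 lower and 0 higher were made in each of these 6 fits. Without a filter on low signal, when 1741350 loci were tested, 1 member was called (background 0.0035%).

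Calls were concentrated among members with much signal. Of the 45 members with a mean signal of 500 or more, 10 were called (22.2%, against 7.11% of all tested loci at that level), with a median change of −0.60 beside −0.38. Between 100 and 500, 10 of 153 were called (6.54%, against 3.83%), with a median of −0.51 beside −0.30. Below 100 the members fell under the background, with 7 of 414 called between 50 and 100 (1.69%, against 2.75%) and 3 of 439 between 20 and 50 (0.683%, against 1.18%). The plot of change against signal shows the lower calls reaching across the whole range of signal.

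**Figure D3:**
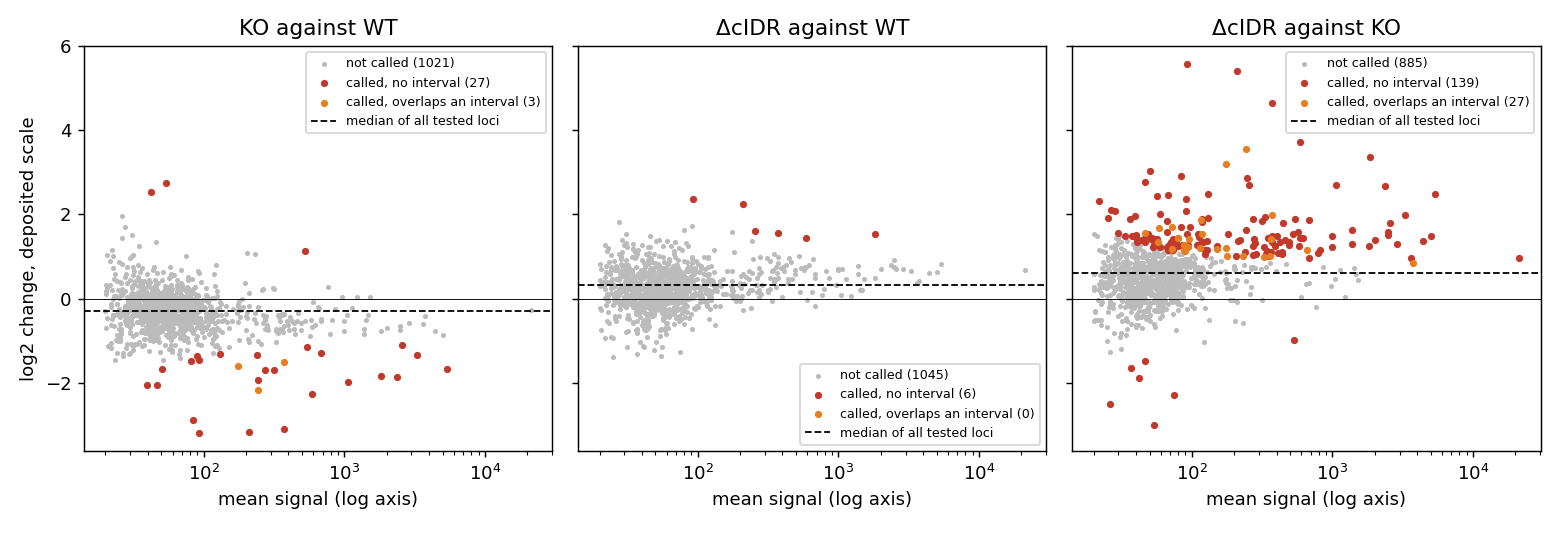
Log2 change on the deposited scale (vertical axis) against mean signal over 6 libraries (logarithmic) for the 1051 tested long ERVK loci in each comparison. Grey points were not called, red points were called and overlap no interval, orange points were called and overlap one, and the dashed line is the median of all tested repeat loci. Called loci number 30 in KO against WT, 6 in ΔcIDR against WT and 166 in ΔcIDR against KO, where ERCC scaling gives mostly lower calls (100 of 136).

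Length also separated the calls. Of the 57 tested members of 7 to 8 kb, 11 fell and 1 rose in KO (21.1%, against 3.01% of all tested repeat rows of that length, 2.76% lower), with a median change of −0.65. Of 129 members of 5 to 6 kb, 7 fell and 0 rose (5.43%, against 3.5%, 1.98% lower), with a median of −0.29. Of 863 members of 6 to 7 kb, 9 fell and 2 rose (1.27%, against 1.04%, 0.903% lower), with a median of −0.30. After centring, the median was −0.37 for 7 to 8 kb, against −0.014 for 5 to 6 kb and −0.022 for 6 to 7 kb. The shares of all tested rows of a length include the members themselves, and the length classes were not matched for signal. The classes were also set with results of these data known, so these shares are a description.

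**Figure D4:**
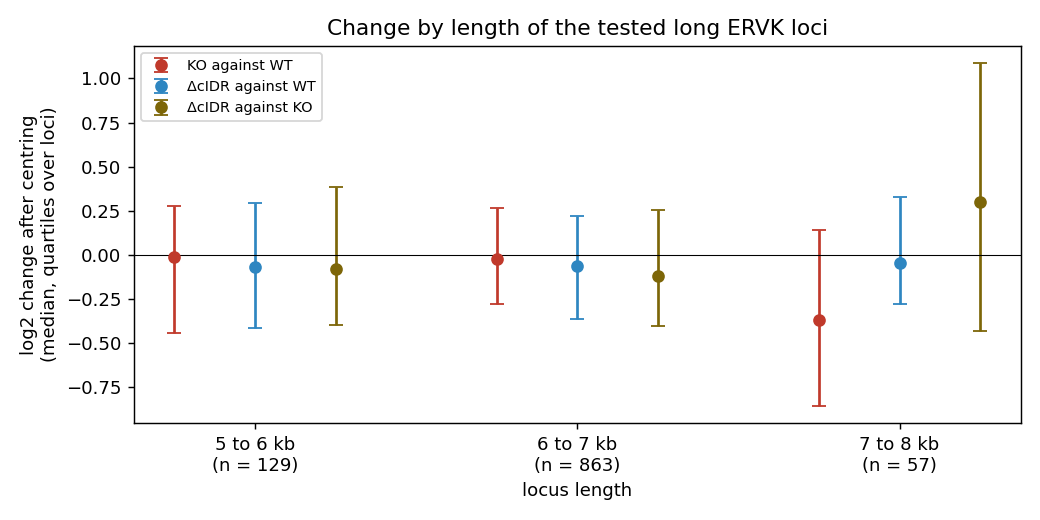
Median log2 change after centring each library on the median of tested loci, with quartiles over loci as bars, for tested long ERVK loci of 5 to 6 kb, 6 to 7 kb and 7 to 8 kb. Medians lie near 0 except at 7 to 8 kb, where KO against WT lies at −0.37 and ΔcIDR against KO at 0.30.

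The locus with the largest fitted decrease lay on chromosome 13 (57113543 to 57118693, 5150 bp). It had 0 reads in both KO libraries, against a signal of 27.8 and 58.9 in WT, from 12 and 24 reads. With KO set at a floor of 3 reads per library, its signal lay 8.45-fold below the WT mean (limma adjusted p = 1.60e-06, not called without WT replicate 2). That fold does not allow for the spread of the WT libraries. The ΔcIDR libraries had 277 and 195 at the same locus.

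A member on chromosome 14 (19678750 to 19686283, 7533 bp) had a signal of 503 and 531 in ΔcIDR, 5.90 and 8.71 in KO, and 97.3 and 113 in WT. The KO libraries lay below both WT libraries, and the change was −3.17 ± 0.42 (log2, SE, limma adjusted p = 4.13e-10). On chromosome 3 (28929784 to 28937321, 7537 bp) signals were 724 and 901 in ΔcIDR, 41.3 and 17.4 in KO, and 269 and 272 in WT, a change of −3.10 ± 0.37 in KO against WT (limma adjusted p = 1.22e-12). Both loci have short ERVK rows on both sides, and at both the KO libraries lay lowest and the ΔcIDR libraries highest. A member on chromosome 7 (42622429 to 42630164, 7735 bp) stood at 127 and 115 in ΔcIDR, 11.8 and 11.6 in KO, and 123 and 115 in WT. Its ΔcIDR and WT libraries overlapped, and its KO libraries lay below all 4 others, a change of −2.89 ± 0.45 against WT (log2, SE, limma adjusted p = 3.06e-07). On chromosome 5 (138208542 to 138216148, 7606 bp) the signal was 1254 and 1186 in ΔcIDR, 114 and 66.8 in KO, and 514 and 383 in WT, a change of −2.28 ± 0.35 for KO (limma adjusted p = 9.92e-08). These last 4 loci were called in each fit that left out 1 library.

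The 3 members that rose in KO had fewer reads, apart from 1. On chromosome 6 (59830762 to 59838308, 7546 bp) the ΔcIDR libraries held 6 and 2 reads, the KO libraries 77 and 79, and the WT libraries 10 and 4, a change in signal of 2.74 ± 0.53 for KO against WT (log2, SE, limma adjusted p = 1.35e-04). On chromosome 17 (23740655 to 23746988, 6333 bp) signals were 13.3 and 32.0 in ΔcIDR, 90.5 and 92.9 in KO, and 13.9 and 9.82 in WT, a change of 2.53 ± 0.54 (limma adjusted p = 8.40e-04). On chromosome 9 (84766305 to 84772597, 6292 bp) signals were 357 and 448 in ΔcIDR, 1041 and 601 in KO, and 403 and 324 in WT, a change of 1.12 ± 0.34 (limma adjusted p = 0.0411). At each locus both KO libraries lay above all 4 others. The loci on chromosomes 6 and 17 passed the filter only through the KO libraries, since the mean signal of the other 4 was under 20, and a locus that enters the test this way had to differ. The call on chromosome 6 was lost without WT replicate 2, that on chromosome 17 without KO replicate 2 or WT replicate 2, and that on chromosome 9 without any library except KO replicate 2.

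**Figure D5:**
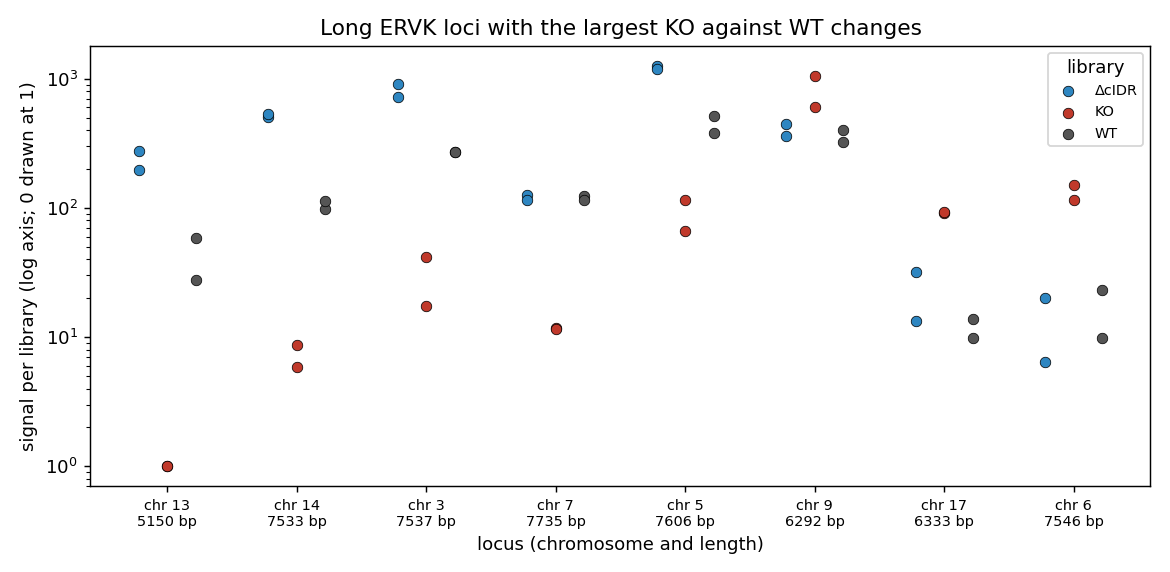
Signal in each library (logarithmic axis) at the long ERVK loci with the largest changes in KO against WT, ordered from the largest decrease on the left, with values of 0 drawn at 1. Points are single libraries of ΔcIDR (blue), KO (red) and WT (grey). KO libraries lie below WT at the 5 loci on the left and above at the 3 loci on the right.

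As a set, the 27 members that fell in KO held 11 of 7 to 8 kb, 9 of 6 to 7 kb and 7 of 5 to 6 kb. They lay on 12 chromosomes and had a median of 97.2 mean reads. Some lay close together, among them the 4 on chromosome 12, all between 19564815 and 20727604. Short ERVK rows flanked 16 of the 27 members on both sides. Their fitted changes ran from −3.19, at the chromosome 13 locus without KO reads, to −1.12, with a median of −1.69. In the comparison of ΔcIDR with WT, which shares the WT libraries, the same 27 loci ranged from −0.73 to 2.37 with a median of 0.73, and 5 of them were called.

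Other repeats near the members that changed in KO were also shifted. The signal of all other repeat rows lying 1.5 to 20 kb from a member was summed where it held at least 60 reads. It could be measured around 21 of the 27 members that fell, and its median change was −1.08, with 16 of the 21 below −0.34, the median around all tested members. Around members that were not called, the median was −0.34 (546 members). Around the locus on chromosome 6 that rose it was 2.28 ± 0.56 (SE), and around that on chromosome 17 0.75 ± 0.22. Around the falling loci on chromosomes 13 (57113543), 3 and 5 (138208542) it was −1.42 ± 0.14, −0.60 ± 0.06 and −0.28 ± 0.29. The value on chromosome 13 rested on only 5 reads in each KO library and 13 in each WT library, so its small SE says little. Some called members thus lay in stretches where other repeat rows differed in the same direction, and others did not. The part of the surrounding stretch in the calls was not tested.

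In ΔcIDR against WT, 6 members rose and 0 fell on the deposited scale, 0.571% of those tested against a background of 0.0713% (limma), of which 0.0547% higher and 0.0166% lower. The share was close to that of ERVK rows under 5000 bp, where 0.497% were called (106 higher and 13 lower), so it was not particular to long copies. At an unadjusted p under 0.05 there were 111 (10.6%, against 10.3% of all tested loci). edgeR's quasi-likelihood test called 7 higher and 0 lower on the deposited scale (background 0.084%) and 9 and 0 with TMM factors (0.222%), whereas with ERCC scaling 2 were higher and 6 lower (background 0.557%). Libraries did not overlap at 455 members (43.3%, background 48.3%), and the median change was 0.26, beside 0.33 for all loci. No call of the 6 was made in all fits that left out 1 library. Without ΔcIDR replicate 1, WT replicate 1 or WT replicate 2, limma called 0 members (backgrounds 0.0212%, 0.0115% and 0.0166%). At an unadjusted p under 0.05 these fits had 65, 57 and 41 members, beside 5.03%, 4.24% and 6.04% of all loci. Without ΔcIDR replicate 2 another member was called, as lower (background 0.0254%). Without KO replicates 1 and 2 there were 43 and 42 calls, against higher backgrounds of 1.87% and 1.88%. Without a filter on low signal limma called 0 (background 0.000115%), and 124 members had an unadjusted p under 0.05 (9.34%, against 6% of all loci). Around 5 of the 6 called members the other repeats could be measured as above, with a median change of 0.71 beside 0.34 around all tested members, and all 5 lay above it. The part of the surrounding stretch in these calls was not tested.

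Of the 6 members, 4 were already described as lower in KO. At the chromosome 14 locus (19678750 to 19686283) the change was 2.25 ± 0.42 (log2, SE, limma adjusted p = 7.77e-04), with a signal of 503 and 531 in ΔcIDR, against 97.3 and 113 in WT. The chromosome 13 locus (57113543 to 57118693) had the largest fitted change, 2.37 ± 0.52 (limma adjusted p = 0.0151), with 83 and 61 reads in ΔcIDR, against 12 and 24 in WT, and lost its call after centring. On chromosome 9 (59277789 to 59282849, 5060 bp), a member without flanking ERVK rows had 3601 and 4031 in ΔcIDR, 449 and 296 in KO, and 1376 and 1254 in WT. It changed by 1.53 ± 0.32 in ΔcIDR against WT (limma adjusted p = 0.00494) and by −1.83 ± 0.32 in KO against WT (limma adjusted p = 6.31e-06). On chromosome 11 (61282260 to 61288737, 6477 bp) signals were 470 and 575 in ΔcIDR, 104 and 55.2 in KO, and 148 and 186 in WT, a change of 1.62 ± 0.37 against WT (limma adjusted p = 0.0301). At all of these loci both ΔcIDR libraries lay above all 4 others. With ERCC scaling, the call was kept at 2 of the 6 members.

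The largest number of calls came from ΔcIDR against KO, with 159 members higher and 7 lower on the deposited scale, 15.8% of those tested against a background of 19.3% (limma). The background was 18.6% higher and 0.717% lower. Of the 159 higher calls, 4 passed the filter only through the ΔcIDR libraries, and 3 of the 7 lower calls only through KO. Loci that enter the test this way had to differ. Libraries did not overlap at 544 members (51.8%, background 58.4%), and the median change was 0.51, beside 0.61 for all loci. After centring 72 were higher and 18 lower (8.56%, background 10.9%, with 6.17% higher and 4.74% lower). With ERCC scaling 36 were higher and 100 lower (background 17.3%), so that the direction of most calls followed the scale. Of the 159 higher calls, 36 were also made in the centred, ERCC and both edgeR fits, and of the 7 lower calls 6 were. These fits used the same filter, so agreement carries no weight for calls that passed it only through the higher genotype. Leaving out KO replicate 1 gave 281 calls (background 32.8%), KO replicate 2 104 (8.63%), ΔcIDR replicate 1 50 (4.18%) and ΔcIDR replicate 2 46 (5.78%), and without a filter on low signal there were 34 (0.522%). Around the higher calls, other repeats had a median change of 0.97, beside 0.69 around all tested members, and 57 of the 87 measured lay above it. Its part in the calls was not tested.

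Here too the members with most signal exceeded the background. At a mean signal of 500 or more, 33 of 45 were called (73.3%, against 54.3%), with a median of 1.26 beside 0.88. At 20 to 50, 22 of 439 were called (5.01%, against 11.5%), with a median of 0.37 beside 0.55. Of the 57 tested members of 7 to 8 kb, 25 were higher and 1 lower (45.6%). Among all tested rows of that length, these members included, 8.52% were called. The median of the members of 7 to 8 kb after centring was 0.30, against −0.079 for 5 to 6 kb and −0.12 for 6 to 7 kb. Of the 20 tested members with no flanking ERVK rows, 10 were higher and 3 lower (65%, against 19.3% of all tested loci). After centring 4 were higher and 4 lower (background 10.9%). This class was small and was not matched for signal.

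Among the loci that were lower in ΔcIDR than in KO, those on chromosomes 6, 17 and 9 are the 3 that rose in KO against WT. On chromosome X (9463230 to 9468895, 5665 bp), signals were 6.67 and 6.39 in ΔcIDR, against 59.0 and 62.4 in KO, from 2 and 2 reads against 30 and 43 (change −2.51 ± 0.66, log2, SE, limma adjusted p = 0.00244). Like the loci on chromosomes 6 and 17, this member passed the filter only through the KO libraries. A second chromosome X member (54661256 to 54667480, 6224 bp) had 13.3 and 38.4 in ΔcIDR, against 159 and 110 in KO (change −2.29 ± 0.45, limma adjusted p = 2.85e-05). Neither of these loci, nor another on chromosome 1 (5063066 to 5068453, 5387 bp; change −1.50 ± 0.50, limma adjusted p = 0.0202), had a flanking ERVK row. Without 1 of the libraries, the call was lost at each of the 3 (KO replicate 2 for the first, ΔcIDR replicate 1 for the second, and KO replicate 1 or either ΔcIDR library for the third).

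The member with by far the most signal lay on chromosome 5 (60106612 to 60113433, 6821 bp), with short ERVK rows on both sides. Averaging 8645 reads a library, it held 13.0% and 12.9% of member reads in ΔcIDR, 13.6% and 13.2% in KO, and 11.5% and 11.4% in WT. Its signal was 28030 and 31315 in ΔcIDR, 19150 and 12207 in KO, and 19086 and 17874 in WT. The KO and WT libraries overlapped (change −0.27 ± 0.31, limma adjusted p = 0.753), and ΔcIDR against KO was 0.95 ± 0.31 (limma adjusted p = 0.0182) but −0.10 with ERCC scaling, and was not called with edgeR or when either ΔcIDR or either WT library was left out. The next member by signal, on chromosome 4 (19149764 to 19156611, 6847 bp), was called in KO against WT on the deposited scale, where the others of the 6 with most signal were not. It had 8805 and 9747 in ΔcIDR, 2055 and 1305 in KO, and 5523 and 4952 in WT. The KO libraries lay below all 4 others, with a change of −1.67 ± 0.31 against WT (limma adjusted p = 3.21e-05, not called when either WT library was left out). The sum of the 77 members on chromosome 4, this locus included, changed by −1.11 ± 0.34 (SE) in KO against WT. In all, 3 members on chromosome 4 were called lower. The second (147551633 to 147557436) had 836 and 482 in KO, and 2640 and 2086 in WT. The third (3457816 to 3462853) had 7.87 and 11.6 in KO, and 69.5 and 44.2 in WT. The median change of the 57 tested members on chromosome 4 was −0.28, beside −0.29 for all tested loci. The sum thus does not describe the typical member there.

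The other 4 members with most signal lay on chromosome 11 (19359453 to 19365892), chromosome 12 (76269436 to 76275893), chromosome 7 (42884595 to 42891051) and chromosome 13 (62451923 to 62459308). In KO against WT they changed by −0.86, −0.77, −0.43 and −0.60, with limma adjusted p-values of 0.111, 0.178, 0.556 and 0.345 on the deposited scale. After centring, those on chromosomes 11 and 12 were called lower, with changes of −0.58 and −0.49 (limma adjusted p = 0.0199 and 0.0256), as they were with edgeR's TMM factors, and that on chromosome 11 with ERCC scaling too (−0.46). Without KO replicate 1 all 4 were called lower. In ΔcIDR against KO they changed by 1.49, 1.36, 0.85 and 0.97, each called on the deposited scale. With ERCC scaling the direction of the last 2 turned, to −0.20 on chromosome 7 and −0.087 on chromosome 13. Leaving out ΔcIDR replicate 2 ended the call at all 4.

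At 240 members (15.4%) at least 1 bp overlapped an interval of the deposited interval table, and at 1314 none did. For comparison, intervals overlapped 1.15% of ERVK rows under 5000 bp, 19.4% of ERV1 rows, 51.5% of LINE-1 rows and 99.2% of ERVL rows of at least 5000 bp. The 277 intervals concerned had a median length of 241 bp, so that a median of 5.09% and at most 12.4% of an overlapped member was covered. One interval lay on each of 205 members, 2 on 33 and 3 on 2. They gathered at the ends of the loci. Of 272 intervals centred inside a member, 132 were centred in the fifth with the lowest coordinates and 111 in the fifth with the highest, against 12, 0 and 17 in the 3 between. Strand is not in the tables, so the 2 ends cannot be named.

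The share of members with an interval was higher at higher read levels up to a mean of 100 reads, and lower beyond. At a mean of 1 to 10 reads 4 of 207 members were overlapped (1.93%), at 10 to 30 reads 119 of 669 (17.8%), at 30 to 100 reads 101 of 257 (39.3%), and at 100 or more only 16 of 91 (17.6%). Of the 15 members with the most reads, 14 carried none, the exception being the chromosome 7 locus (42884595 to 42891051). The overlapped members had a median of 29.5 mean reads (quartiles 23 and 40.0), against 14.5 (0.833 and 24.8) in the others, which include all 226 members without a read. How the intervals were called is not stated for this table, and they may rest on the same reads, so these levels are a description. By length, 21.5% of members of 6 to 7 kb were overlapped, 7.8% of those of 7 to 8 kb and 2.88% of those of 5 to 6 kb.

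On the deposited scale, changes in the sums were smaller in members with an interval. Their summed signal was 33018 and 36689 in ΔcIDR, 26536 and 18050 in KO, and 29345 and 27221 in WT, and that of the others was 182792 and 206405 in ΔcIDR, 113905 and 74382 in KO, and 136142 and 129717 in WT. KO against WT was −0.37 ± 0.28 with an interval and −0.53 ± 0.31 without, ΔcIDR against WT was 0.30 ± 0.09 and 0.55 ± 0.09, and ΔcIDR against KO was 0.67 ± 0.29 and 1.08 ± 0.32 (log2, SE). Within a library, the ratio of the 2 classes does not depend on the scale. The difference between the classes was 0.16 ± 0.04 for KO against WT, −0.25 ± 0.02 for ΔcIDR against WT and −0.41 ± 0.03 for ΔcIDR against KO (log2, SE over libraries), and the ratio did not overlap between any 2 genotypes. Where at least 10% of a locus had to be covered, which 15 members met, the differences were 0.014 ± 0.085, −0.29 ± 0.07 and −0.31 ± 0.06.

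These differences belonged to the sums rather than to the typical locus. Taken as medians over tested members they were 0.051 ± 0.041, −0.012 ± 0.041 and −0.063 ± 0.003 in the same order, and without the 10 members with most signal the sums gave 0.11 ± 0.04, −0.20 ± 0.03 and −0.30 ± 0.03. Per locus, 3 of 237 tested members with an interval fell in KO against WT and 0 rose (1.27%). Of 814 without one, 24 fell and 3 rose (3.32%, background 2.37% over all tested loci). In ΔcIDR against WT all 6 called members lacked an interval, as did 814 of the 1051 tested. They were 0.737% of those 814, against a background of 0.0713%. In ΔcIDR against KO 27 of 237 with an interval were higher (11.4%). Of 814 without, 132 were higher and 7 lower (17.1%), and both shares lay under the background of 19.3%. At a mean signal of 100 to 500, ΔcIDR against KO called 13 of 52 members with an interval (25%, median 0.69) and 51 of 101 without (50.5%, median 1.03), beside 29.9% of all tested loci at that level (median 0.68), on the deposited scale. Whether these shares differ was not tested.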

How the data were processed

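RNA of the chromatin-associated fraction was depleted of ribosomal RNA, mixed with spike-in RNA, fragmented and immunoprecipitated with an m6A antibody, per the labels' protocols. Per the submitters' processing notes the build is GRCm39 and the tools include HISAT2, featureCounts, MACS2, bedtools, SAMtools, Picard and fastp, without versions or roles. The authors deposited a spike-in-scaled read signal for intervals and for repeat loci. Of the repeat values, 100% were whole reads times 1 factor per library, within a tolerance of 1e-06, and these reads were used for depth and for edgeR counts.

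Columns were grouped by genotype as named. Sums, shares and classes were computed in Python 3.11.15 (pandas 2.3.3, numpy 2.4.6). limma 3.58.1 in R 4.3.3 fitted log2(signal + 5), with a trend and 1 mean per genotype, to 433487 loci with a mean signal of at least 20. edgeR 4.0.16 was the alternative on counts. The fits were run on simulated counts with a fixed spread and exact library factors, so errors in the scale were not covered. Same-numbered libraries did not deviate together (correlations −0.041, 0.035 and −0.11), so numbers were not taken as pairs. Named loci are the 6 with most signal, the longest, and in each comparison up to 5 per direction with the largest called change whose libraries did not overlap. The members, classes and lists were chosen with earlier results of these data known. Coordinates are as deposited; whether starts count from 0 or 1 is not stated.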

Additional observations from a re-analysis of the deposited data

How the results depend on the processing

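The scale moved the sums most. The log2 difference of the member sum was −0.098 for KO against WT, −0.15 for ΔcIDR against WT and −0.052 for ΔcIDR against KO with ERCC scaling, and −0.18, 0.093 and 0.28 when scaled to the total of repeat reads. The unmodified spike-in gave −0.67 ± 0.67 for ΔcIDR against WT and −0.39 ± 0.37 for ΔcIDR against KO, and centring gave 0.19 ± 0.16 and 0.41 ± 0.12 (SE). The difference between members with and without an interval, in the order KO against WT, ΔcIDR against WT and ΔcIDR against KO, was 0.014, −0.29 and −0.31 where at least 10% of the locus had to be covered, 0.051, −0.012 and −0.063 as a median over tested loci, and 0.11, −0.20 and −0.30 without the 10 members with most signal, an alternative chosen after seeing the data. As a share of all repeat reads, members differed by −0.037 percentage points in KO against WT and 0.058 in ΔcIDR against KO, beside −0.35 and 0.64 as a share of ERVK reads, whose whole is smaller. Without a filter on low signal 1, 0 and 34 members were called, with more loci tested (backgrounds 0.0035%, 0.000115% and 0.522%). With a replicate block 21, 2 and 141 were called (2%, 0.19% and 13.4%, against 1.54%, 0.0344% and 15.5% of all tested loci). Centring and a replicate block together, added after seeing the data, gave 32, 4 and 82 (3.04%, 0.381% and 7.8%, against 2.69%, 0.0782% and 9.48%). Centring alone gave 90 for ΔcIDR against KO (background 10.9%) and TMM factors gave 100 (12.7%). Leaving out 1 library gave 7 to 117, 0 to 43 and 46 to 281 calls. Causes were not tested. ERCC scaling turned ΔcIDR against KO at 3 of the loci with most signal, to −0.10 on chromosome 5, −0.20 on chromosome 7 and −0.087 on chromosome 13. Of 726 values for 41 single-locus results, 602 kept their side of the threshold, 103 lost their call, 18 gained one and 3 turned. A turn was counted only where the main fit made a call. Results without a call could change direction uncounted, as KO against WT did on chromosome 5 (60106612 to 60113433), from −0.27 to 0.13 with ERCC scaling. Minimum lengths of 4000 and 6000 bp moved the 3 sums, pseudocounts of 1 and 20 and minimum signals of 5 and 50 the 3 counts, and an overlap of 200 bp the 3 interval differences, by less than the limits set (1 SD, or 1.5 times for counts). So did leaving out chromosomes 6, 8, 11, X and Y, for all of these. Depth limited the rest: 503 members were too low to test.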
